A study of Mus musculus with 6 samples.

Results

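The AP-1 transcription factors described here are 10 genes, Fos, Fosb, Fosl1, Fosl2, Jun, Junb, Jund, Batf, Batf3 and Maff. They were taken by gene name from a table of 54532 mouse genes, and each name matched 1 gene. RNA was sequenced from 6 cultures of CD4+ T cells, isolated from the spleens of male C57BL/6 mice aged 6 to 8 weeks and activated with anti-CD3 and anti-CD28 in the presence of IL-2, IL-12 and anti-IL-4, conditions that drive Th1 differentiation. In 3 cultures ALX-5407, a selective inhibitor of the glycine transporter GlyT1, was added at 500 nM (Th1+ALX-5407), and the other 3 received vehicle, 0.1% DMSO (Th1). The sample labels give 72 h under these conditions, as do the study's culture methods and the legend of its RNA sequencing results, whereas its sequencing methods give 24 h of exposure to the drug. The labels call the replicates biological without saying whether they came from separate mice, and if they did not, the p-values measure only the spread between these cultures. Total counts per library ranged from 30801753 to 36727788.

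AP-1 is a dimer of basic leucine zipper (bZIP) proteins that binds short palindromic sites in DNA. JUN proteins pair with one another or with FOS and BATF proteins, whereas FOS and BATF proteins need a JUN-type partner to bind with strength. In T cells AP-1 joins NFAT at cytokine genes after stimulation through the antigen receptor, and JUN-BATF dimers join IRF4 at composite sites.

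All 10 genes passed the filter on low counts, and the members moved in both directions. By edgeR, with p-values adjusted over all 15938 genes tested, 7 of 10 were called at an adjusted p under 0.05, against 47.72% of all genes. Junb, Fos and Jund were higher with ALX-5407, 3 of 10 against 24.53% of all genes. Fosl2, Maff, Batf and Batf3 were lower, 4 of 10 against 23.18%. The remaining 3, Fosb, Fosl1 and Jun, were not called. With so few members and calls this common over the whole table, these shares say nothing particular about the family. A log2 fold change beyond 1 in either direction was then also required of a call. Under that rule edgeR gave 0 of 10 members, against 10.04% of all genes (536 higher and 1064 lower). DESeq2 and limma-voom also gave 0 under that rule, and 7 members had an unadjusted p under 0.05 in edgeR, as had 53.5% of all genes tested. The median log2 fold change of the members was -0.15, beside 0.0053 for all genes tested. Without treated replicate 3 it was -0.0124 for the members and 0.0038 for all genes. With a trend over gene length taken out of each library it was -0.0658 and 0.0103. The median absolute log2 fold change was 0.35 for the members and 0.36 for all genes. In bulk RNA, fewer cells that express a gene and less RNA per cell cannot be told apart.

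**Figure D1:**
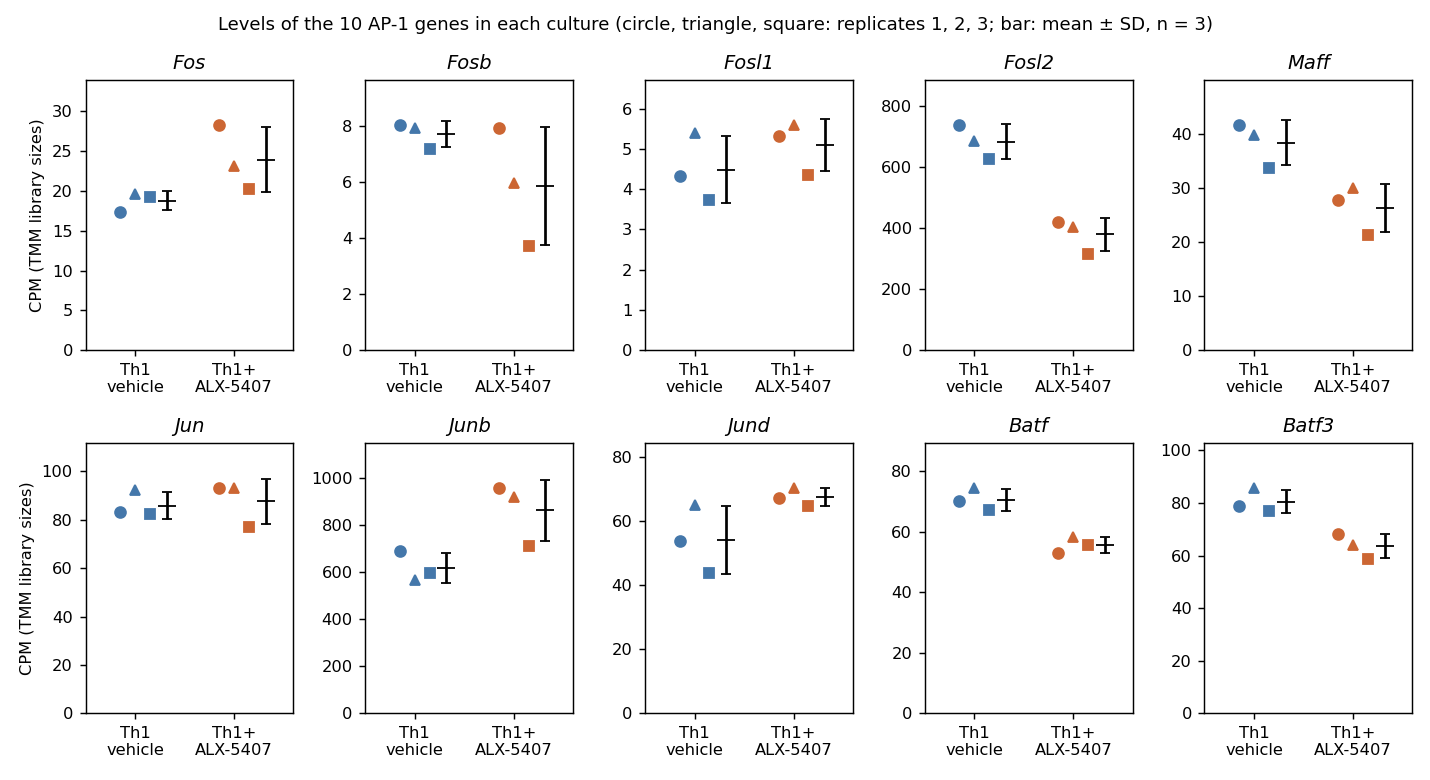
Level of each AP-1 gene in each culture, in CPM with TMM-scaled library sizes, on linear axes that start at 0. Symbols are replicates 1, 2 and 3 of each group, and bars are the mean ± SD of 3 cultures. The groups do not overlap for Fos, Fosl2, Maff, Junb, Batf and Batf3. The share of all genes without overlap is not given here, so this says nothing particular about the family.

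Junb (chr8:84974484-84978718, minus strand) encodes the JUN protein best known as a partner of BATF in effector T cells. In CPM, with library sizes scaled by TMM, it was counted at 691, 566 and 596 in Th1 replicates 1, 2 and 3 and at 957, 917 and 712 in Th1+ALX-5407 replicates 1, 2 and 3. Every treated culture lay above every vehicle culture, although treated replicate 3 was closer to the vehicle values than to the other treated ones. The log2 fold change was 0.48 (SE 0.10, edgeR adjusted p = 0.00102), a rise of 39.6%. With each replicate left out in turn it stayed between 0.41 and 0.61. An exon of Prdx2 on the opposite strand shares 7.52% of the exon bases of Junb. The strand setting of the counts is not given in the sources used here, so reads from that stretch cannot be assigned. Prdx2 had a log2 fold change of -0.36 (edgeR adjusted p = 0.00116), and the part of its reads in the count of Junb was not tested.

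Jund (chr8:70698949-70700616, plus strand) encodes a JUN protein that many resting cells already make. Its values were 53.8, 64.8 and 43.6 CPM in Th1 replicates 1 to 3 and 67.2, 70.1 and 64.7 CPM in Th1+ALX-5407 replicates 1 to 3. The groups touched, since the lowest treated value was just under the highest vehicle value, and the vehicle cultures were more spread than the treated ones (SD 10.6 against 2.71 CPM). The log2 fold change was 0.32 (SE 0.11, edgeR adjusted p = 0.0234). The level of Jund is uncertain, because Gm11175 on the opposite strand shares 52.6% of its exon bases, although Gm11175 itself had 0 counts in every library. The call rested on most of the libraries. Without Th1 replicate 1 the log2 fold change was 0.30 (edgeR adjusted p = 0.0835), and without Th1 replicate 3 it was 0.17 (edgeR adjusted p = 0.109). Without treated replicate 1 it was 0.32 (edgeR adjusted p = 0.0516), and without treated replicate 2 it was 0.29 (edgeR adjusted p = 0.0765). Over all alternatives the adjusted p of Jund ran from 8.68e-06 to 0.109.

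Jun (chr4:95049034-95052222, minus strand) encodes c-Jun, the classical partner of c-Fos. Its values were 83.0, 92.1 and 82.2 CPM in Th1 cultures and 93.0, 92.9 and 77.0 CPM in treated cultures. The groups overlapped, and treated replicate 3 was the lowest of the 6. The log2 fold change was 0.031, with a 95% interval from -0.15 to 0.21 (edgeR adjusted p = 0.793), so small changes of either sign remain possible, and the sign of the estimate turned under 7 of 18 alternatives. Junos on the opposite strand shares 7.28% of the exon bases of Jun and had at most 88 reads per library. Among the JUN genes 2 of 3 were called higher and 0 lower, against 24.53% and 23.18% of all genes. Lower JUN genes numbered 0 at an unadjusted p under 0.05 too, in edgeR, DESeq2 and limma-voom alike.

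Fosl2 (chr5:32135801-32157842, plus strand) encodes Fra-2, a FOS protein without the strong activation domain of c-Fos. It had the smallest p of the 10 members and ranked 915 of 15938 genes by p. It was counted at 737, 685 and 626 CPM in Th1 replicates 1 to 3 and at 418, 403 and 316 CPM in treated replicates 1 to 3. The highest treated culture stood far below the lowest vehicle culture. The log2 fold change was -0.85 (SE 0.10, edgeR adjusted p = 2.67e-06), which is a change of -44.5%. With each replicate left out in turn it ranged from -0.93 to -0.73 and kept its call. The raw counts behind it were large, from 11063 to 24010 reads per library, and no other annotated gene shared its exon bases.

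Fos (chr12:85473890-85477273, plus strand), the prototype early response gene of the family, moved the other way. Its values were 17.4, 19.6 and 19.3 CPM in Th1 replicates 1 to 3 and 28.3, 23.2 and 20.2 CPM in treated replicates 1 to 3. The groups did not overlap, but treated replicate 3 lay only just above the vehicle cultures and treated replicate 1 carried much of the difference. Its log2 fold change was 0.35 (SE 0.12, edgeR adjusted p = 0.0217). Without treated replicate 1 it was 0.22 (edgeR adjusted p = 0.16), and without Th1 replicate 1 it was 0.29 (edgeR adjusted p = 0.108). Over all alternatives the adjusted p ran from 0.00226 to 0.16.

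Fosb (chr7:19302696-19310051, minus strand) encodes a further FOS protein of the early response and was among the lowest members, with 130 to 280 reads per library. Its values were 8.05, 7.94 and 7.18 CPM in Th1 cultures and 7.93, 5.98 and 3.71 CPM in treated replicates 1, 2 and 3. Treated replicate 1 lay within the vehicle range, and the others lay below it. The log2 fold change was -0.40, with a 95% interval from -0.83 to 0.041 (edgeR adjusted p = 0.128). Its size depended on single libraries. Without treated replicate 1 it was -0.66 (edgeR adjusted p = 0.0139), and without treated replicate 3 it was -0.15 (edgeR adjusted p = 0.513). The adjusted p ran from 0.00854 to 0.513 over all alternatives. With a replicate block Fosb was called lower (-0.44, edgeR adjusted p = 0.0366).

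Fosl1 (chr19:5447703-5455945, plus strand), which encodes Fra-1, had 115 to 209 reads per library. Its values were 4.33, 5.39 and 3.74 CPM in Th1 cultures and 5.32, 5.60 and 4.36 CPM in treated cultures, and the groups overlapped. For Fosl1 the log2 fold change was 0.18, with a 95% interval from -0.20 to 0.57 (edgeR adjusted p = 0.431). It was 0.054 without Th1 replicate 3 (edgeR adjusted p = 0.84) and 0.32 without Th1 replicate 2 (edgeR adjusted p = 0.215). The level of Fosl1 is uncertain, because Ccdc85b on the opposite strand shares 57.2% of its exon bases. Ccdc85b had up to 1141 reads per library and a log2 fold change of -0.31 (edgeR adjusted p = 0.0291).

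Batf (chr12:85686669-85709087, plus strand) encodes a bZIP protein that lacks an activation domain of its own and works through JUN and IRF partners. Its values were 70.2, 74.4 and 67.1 CPM in Th1 cultures and 53.0, 58.4 and 55.5 CPM in treated cultures. All treated cultures were below all vehicle cultures, and treated replicate 3 did not stand apart here. Batf had a log2 fold change of -0.34 (SE 0.08, edgeR adjusted p = 0.00133). Batf3 (chr1:191097847-191108945, plus strand), its close relative, is expressed in activated T cells and in dendritic cells. Batf3 was at 78.8, 85.6 and 77.1 CPM in Th1 cultures and at 68.2, 64.0 and 58.8 CPM in treated cultures. Again the groups did not overlap, and the log2 fold change was -0.34 (SE 0.08, edgeR adjusted p = 0.00195). Both genes are short, and both calls were lost when a trend over gene length was taken out of each library. Batf then had a log2 fold change of -0.14 (edgeR adjusted p = 0.125) and Batf3 of -0.17 (edgeR adjusted p = 0.0642). With a replicate block added to that correction, Batf3 was called (-0.17, edgeR adjusted p = 0.0498) and Batf was not (-0.14, edgeR adjusted p = 0.105). Over all alternatives the adjusted p ran from 0.000107 to 0.125 for Batf and from 0.00013 to 0.0642 for Batf3.

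Maff (chr15:79346621-79359076, plus strand) encodes a small MAF protein, which has a DNA-binding zipper and no activation domain. Its values were 41.6, 39.8 and 33.6 CPM in Th1 cultures and 27.7, 29.9 and 21.3 CPM in treated cultures. The groups were separate, and replicate 3 was the lowest in each. Maff had a log2 fold change of -0.54 (SE 0.12, edgeR adjusted p = 0.00111), a change of -31.5%. It kept its call under each alternative normalization, test, filter and correction and with any replicate left out, with values from -0.65 to -0.41.

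**Figure D2:**
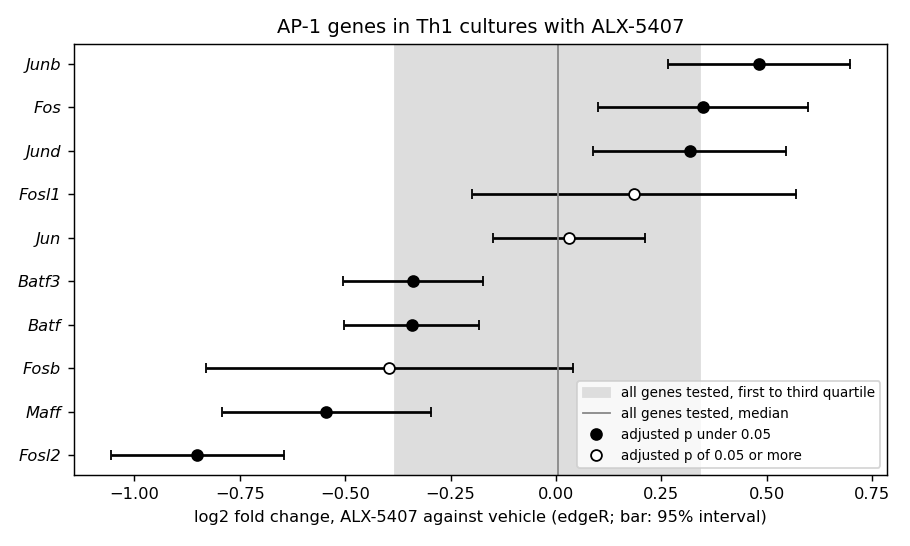
Log2 fold change of each AP-1 gene, ALX-5407 against vehicle, from edgeR, with its 95% interval. Filled points have an adjusted p under 0.05, and the grey band spans the first to the third quartile of all genes tested (-0.38 to 0.34) around their median. Junb and Fos lie above the band and Fosl2, Maff and Fosb below it, and only the interval of Fosl2 lies wholly outside it.

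The start regions of Jun, Junb, Fos and Maff are shown because they match the letters of a CRE or a part of one and hold no exon bases. RefSeq (GRCm38.p6) gives 11 start sites for 9 of the 10 members. The 250 bases before each start were searched on both strands for TGANTCA (an AP-1 site), TGACNTCA (a CRE-like site), TGACG (a partial CRE, which lies within TGACGTCA) and TATAAA, and also for CCAAT and the GC box GGGCGG. In the following 4 sequences, which lie outside annotated exons, capitals mark the matches other than CCAAT and GGGCGG, and each sequence is written along the gene's own strand up to the base before its start. The Maff window lies inside the gene, between exons.
Jun (chr4:95052223-95052472, minus strand): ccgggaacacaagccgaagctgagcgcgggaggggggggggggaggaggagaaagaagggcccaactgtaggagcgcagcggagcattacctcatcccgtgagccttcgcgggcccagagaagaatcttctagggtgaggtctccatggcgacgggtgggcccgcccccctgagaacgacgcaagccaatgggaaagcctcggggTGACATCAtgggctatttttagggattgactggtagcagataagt
Junb (chr8:84978749-84978998, minus strand): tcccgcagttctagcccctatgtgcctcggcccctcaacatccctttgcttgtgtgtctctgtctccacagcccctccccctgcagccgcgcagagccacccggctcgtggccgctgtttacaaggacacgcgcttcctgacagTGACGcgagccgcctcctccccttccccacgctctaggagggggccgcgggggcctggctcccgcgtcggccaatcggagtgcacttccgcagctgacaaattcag
Fos (chr12:85473640-85473889, plus strand): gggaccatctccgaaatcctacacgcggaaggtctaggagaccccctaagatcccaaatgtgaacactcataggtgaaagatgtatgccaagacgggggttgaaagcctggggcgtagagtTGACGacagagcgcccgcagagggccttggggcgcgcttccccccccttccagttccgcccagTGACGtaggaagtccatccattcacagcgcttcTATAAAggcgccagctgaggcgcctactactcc
Maff (chr15:79347270-79347519, plus strand): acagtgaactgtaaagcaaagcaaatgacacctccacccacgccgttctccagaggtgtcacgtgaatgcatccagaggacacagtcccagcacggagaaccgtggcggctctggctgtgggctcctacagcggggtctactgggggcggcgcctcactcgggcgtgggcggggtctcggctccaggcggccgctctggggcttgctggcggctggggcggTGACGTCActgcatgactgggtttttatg
TGANTCA was in 0 of the 11 member windows, beside 6.75% of all 32851 windows of the table. TGACNTCA was in 3 of 11, beside 7.49% of all, at Jun and before the second and the third start of Maff. TGACG was in 6 of 11, beside 17.8% of all, at Fos, Fosb, Junb and Batf and at the same starts of Maff. TATAAA was in 1 of 11, at Fos, beside 12.4%. CCAAT was in 2 of 11, at Jun and Junb, beside 33.8%, and GGGCGG was in 8 of 11, beside 32.7%, in windows of every matched member but Junb and Jund. Fos and Junb, which rose, and Batf and Maff, which fell, thus share TGACG, and the window of Fosl2 has only a GC box. That window consists wholly of exon bases of Fosl2. The windows of Batf3, Batf and Fosb and the third of Maff include 163, 51, 6 and 95 exon bases. These windows, with that of Fosl2, are thus not upstream of the whole gene. Member windows were richer in G and C than all windows (median 61.2% against 52.4%). The part of base content in how often TGACG and GGGCGG occur was not tested. A match of letters is a description and was not measured as a bound site. The RefSeq start of Jund lies well before its gene start in the count table, so its window is not shown.

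Per length, the members differed widely in level. In RPKM (CPM divided by the gene length in kilobases given in the table, with TMM library sizes), Junb led in Th1 cultures at 268 ± 28.4 (SD, n = 3), followed by Fosl2 at 70.5 ± 5.75. Batf3 at 50.4 ± 2.82 and Batf at 50.2 ± 2.61 came next and overlapped each other. Jund, whose level is uncertain for its shared exon bases, at 32.4 ± 6.34 and Jun at 26.9 ± 1.73 also overlapped. Maff at 14.8 ± 1.62, Fos at 7.98 ± 0.519, Fosl1 at 2.63 ± 0.491 and Fosb at 1.24 ± 0.0756 followed, each below the lowest culture of the one before. The level of Fosl1, and so its place above Fosb, is also uncertain for its shared exon bases. The length used for Fosl1 was 1707 bases, beside 2033 exon bases in GENCODE M21. With ALX-5407, Junb rose to 375 ± 57.0 RPKM (SD, n = 3), and Fosl2, at 39.1 ± 5.70, was no longer set apart from Jund (40.4 ± 1.62), Batf3 (39.9 ± 2.95) and Batf (39.6 ± 1.90). The ranges of neighbours among those 4 genes overlapped in the treated cultures. Fos, at 10.2 ± 1.74, and Maff, at 10.1 ± 1.73, also came to overlap. The share of Junb in the summed RPKM of the 10 genes was 51.1% in Th1 cultures and 64.0% in treated ones, and that of Fosl2 was 13.4% and 6.68%.

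Summed by family, the 4 FOS genes stood at 87.4, 83.5 and 76.2 RPKM in Th1 replicates 1 to 3 and at 59.6, 55.7 and 44.4 RPKM in treated replicates 1 to 3. The 3 JUN genes stood at 359, 314 and 311 RPKM in Th1 cultures and at 485, 470 and 372 RPKM in treated cultures. The FOS sum was lower and the JUN sum higher in every treated culture than in any vehicle culture. Within each library, the log2 ratio of FOS over JUN was -2.04, -1.91 and -2.03 in Th1 cultures and -3.03, -3.08 and -3.07 with ALX-5407. The treated cultures fell within a narrow span here, including replicate 3, whose FOS and JUN sums were both low. The difference was -1.07 on the log2 scale, with an exact permutation p of 0.1 (two-sided, n = 3 against 3), the smallest that this design can give. Without any one replicate it ranged from -1.09 to -1.02, and on levels not divided by length (CPM) it was -1.21.

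Most of the FOS sum is Fosl2. Its share of FOS family RPKM was 87.2%, 84.7% and 84.9% in Th1 cultures and 72.4%, 74.7% and 73.5% in treated cultures, and the share of Fos went from between 8.46% and 10.8% to between 17.7% and 20.2%. The BATF over JUN ratio was also lower in each treated culture. Its log2 values were -1.85, -1.56 and -1.70 in Th1 cultures and -2.59, -2.53 and -2.29 in treated cultures, a difference of -0.77 (exact permutation p = 0.1, two-sided, n = 3 against 3). Within the JUN family, the share of Jun was 7.26%, 9.22% and 8.29% in Th1 cultures and 6.01%, 6.20% and 6.48% in treated cultures, without overlap (exact permutation p = 0.1, two-sided). The share of Junb, 78.4% to 83.7% against 83.1% to 85.7%, overlapped between the groups (exact permutation p = 0.3), and so did that of Jund, 8.41% to 12.4% against 8.30% to 10.4% (exact permutation p = 0.6). These ratios are of mRNA, and dimers were not measured.

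**Figure D3:**
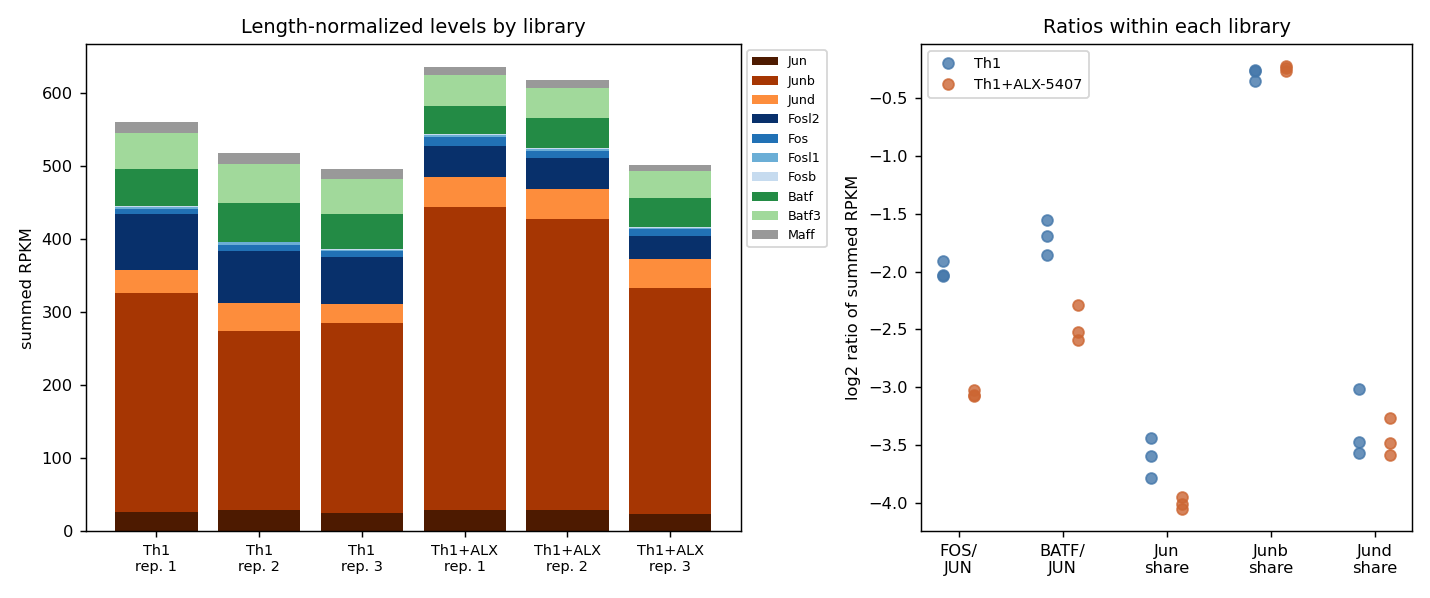
Left, RPKM of the 10 AP-1 genes stacked for each library. Right, log2 ratios of summed RPKM within each library, where each point is 1 culture, for FOS over JUN, BATF over JUN and each JUN gene's share of the JUN sum. The FOS over JUN ratio lies between -2.04 and -1.91 in Th1 cultures and between -3.08 and -3.03 in treated ones.

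The third replicate of each group was low for most members. Treated replicate 3 was the lowest of its group for 9 of the 10 members, all but Batf, and its members lay at a median log2 distance of -0.34 from the mean of the other treated cultures. Over all genes tested that distance was 0.0027, and treated replicate 3 was the lowest of its group for 35.4% of genes. Th1 replicate 3 was the lowest vehicle culture for 8 of 10 members, beside 37.1% of all genes, at a median log2 distance of -0.13 from the other vehicle cultures. With treated replicate 3 left out, the same 7 members were called in the same directions, with log2 fold changes of -0.73 for Fosl2, -0.41 for Maff, 0.61 for Junb and 0.46 for Fos. The part of handling or timing in these low values was not tested.

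The members differ in position, exons and base content. Fos and Batf lie on the same strand of chromosome 12, and Fos rose while Batf fell. Junb and Jund, both on chromosome 8 but on opposite strands, both rose. A search of transcripts at 95% identity over 100 bases matched no gene to a member except those that share its exon bases. Jun and Jund have a single exon. Protein-coding genes of 1 exon had a median log2 fold change of 0.29 over 278 genes tested, beside 0.052 for all 12441 protein-coding genes, with 48.6% and 52.7% called. The GC content of the longest transcript was highest for Jund (67.1%) and Junb (62.6%) and lowest for Fos (51.9%) and Fosl2 (53.1%). With a GC trend removed from each library, Junb had a log2 fold change of 0.39 (edgeR adjusted p = 0.001) and Jund one of 0.23 (edgeR adjusted p = 0.0695). The part of exon number and GC content in these changes was not tested.

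The count table marks 48 genes as bZIP, of which 41 were tested and all 10 members are part. Among the 31 others tested, 10 were higher and 10 lower (64.5% called, beside 47.72% of all genes and 70% of the members), with a median log2 fold change of 0.0496. Fosl2 ranked 5 by p among the 41. The genes ahead of it, of which Crem and Atf4 were chosen after their values were seen, were Crem (-1.55), Maf (1.30), Bach1 (0.93) and Atf4 (-0.69), and they also moved in both directions. Among the listed bZIP partners outside the 10, 4 of 12 tested were higher and 2 lower, against 24.53% and 23.18% of all genes, with a median of 0.14. The large MAF protein gene Maf went from 48.2, 55.2 and 47.0 CPM to 126, 121 and 122 CPM (log2 fold change 1.30, edgeR adjusted p = 3.21e-09). Mafk, a small MAF gene like Maff, rose by 0.46 (edgeR adjusted p = 0.00134) where Maff fell. Bach1, whose protein binds DNA with small MAF proteins, and Nfe2l1 rose by 0.93 and 0.50. Atf7 and Atf3, which encode JUN partners, had log2 fold changes of -0.33 (edgeR adjusted p = 0.0115) and -0.27 (edgeR adjusted p = 0.0377). The calls of Atf7 and Atf3 did not last when single libraries were left out, with adjusted p up to 0.0683 and 0.205.

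Of the factors that share composite DNA sites with AP-1 dimers, 5 of 8 were higher and 1 lower, against 24.53% and 23.18% of all genes, with a median log2 fold change of 0.27. Irf4, the partner of BATF-JUN dimers, went from 720, 754 and 714 CPM to 959, 972 and 1120 CPM (log2 fold change 0.48, edgeR adjusted p = 7.43e-05), whereas Batf fell and Junb rose. Nfatc1 (0.96), Nfatc2 (0.63) and Nfatc3 (0.32), which encode NFAT partners of FOS-JUN dimers, were all called higher, as was Irf8 (0.23, edgeR adjusted p = 0.0135, and up to 0.145 under alternatives). Runx3 was lower (-0.52, edgeR adjusted p = 0.00155).

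Upstream of AP-1, 7 of 24 tested kinase and factor genes were higher and 6 lower, against 24.53% and 23.18% of all genes, with a median log2 fold change of 0.0036. Which direction held more of these calls depended on the processing, with 4 higher and 7 lower when the length trend was removed and 5 and 7 by DESeq2. The p38 gene Mapk14 (0.83) and its activator Map2k3 (0.60) rose, and Map2k7 (-0.94), an activator of the JNK kinases that phosphorylate JUN proteins, fell. Map2k2 (0.41) and Creb1 (0.36) rose and Elk3 (-0.45), a factor of the serum response element, fell, with edgeR adjusted p of 0.0008 or less for each of these 6. Of the genes that control AP-1 mRNA and protein turnover, 6 of 12 were higher and 1 lower, beside the same shares of all genes, with a median of 0.21. Zfp36l1 (0.75), Khsrp (0.43) and Rc3h1 (0.63), whose proteins promote mRNA decay, and Elavl1 (0.47), whose protein binds AU-rich mRNA, rose, as did Det1 (0.34), part of a ligase that targets JUN. Zc3h12a, a nuclease gene, had a log2 fold change of -0.28 (edgeR adjusted p = 0.0199, and up to 0.092 under alternatives).

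Of genes known as AP-1 targets in T cells, 10 of 23 tested were higher and 8 lower, against 24.53% and 23.18% of all genes, with a median log2 fold change of 0.0365. Their median absolute log2 fold change was 0.61, beside 0.35 for the members and 0.36 for all genes. Timp1, a protease inhibitor gene with AP-1 sites, had the smallest p of all genes tested and fell from 565, 610 and 663 CPM to 81.2, 77.3 and 79.4 CPM (log2 fold change -2.95, edgeR adjusted p = 7.84e-13). The cytokine gene Il3 (-3.54), Fasl (-1.56), Ifng (-0.79) and the costimulatory receptor gene Tnfrsf9 (-0.69) were also lower, and Il10 (1.19) was higher, with edgeR adjusted p of 5.75e-06 or less. Whether the change in any of these was tied to the AP-1 genes was not tested.

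Other early response genes, which are induced by stimulation as Fos and Junb are, had 9 of 15 higher and 3 lower, against 24.53% and 23.18% of all genes, with a median log2 fold change of 0.48. Egr1 (1.21), Dusp5 (0.96), Ier5 (0.89), Ier2 (0.68) and Myc (0.57) rose, and Nr4a2 (-1.85) fell. Treated replicate 3 was the lowest of its group for 9 of these 15 genes, beside 35.4% of all genes. Heat shock genes were included as a sign of stress in handling, and 2 of 7 were higher and 4 lower, beside the same shares of all genes. Hspa1b (-1.30) and Hspa1a (-1.37), near-identical copies whose single counts are uncertain, Hspb1 (-1.90) and Dnajb1 (-0.38) were lower, and Hsp90aa1 (0.29) and Hsph1 (0.27) were higher.

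**Figure D4:**
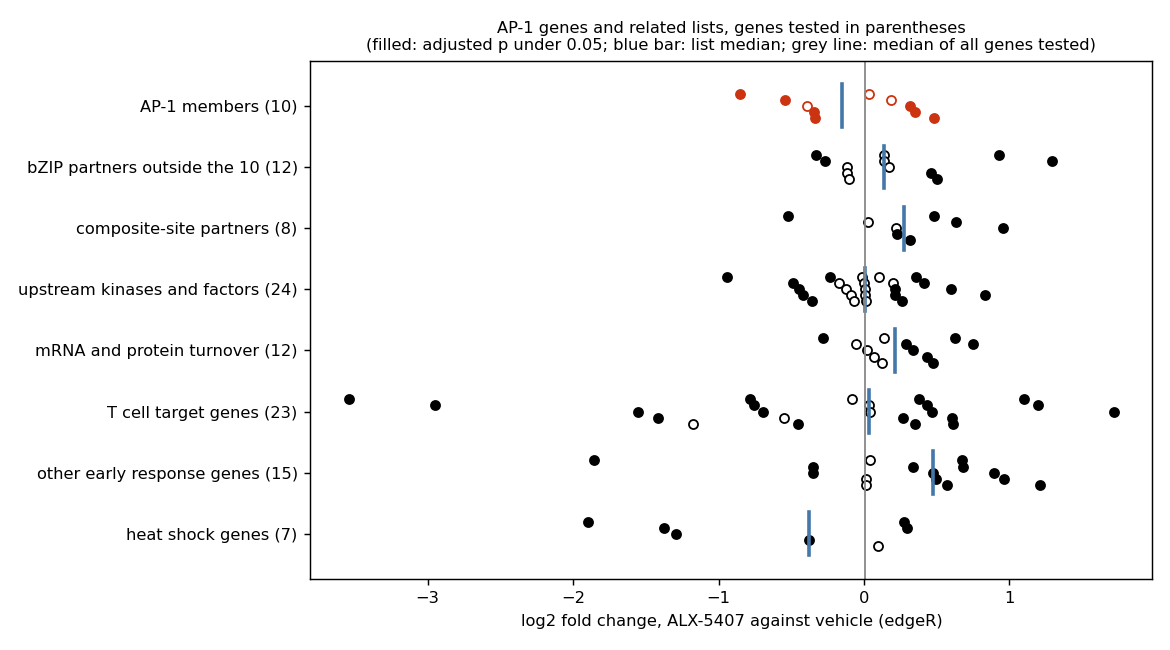
Log2 fold change from edgeR of every tested gene of the AP-1 family (top) and of 7 related lists, with the number tested in parentheses. Filled points have an adjusted p under 0.05, blue bars are list medians, and the grey line is the median of all genes tested. The members lie between -0.85 and 0.48, and targets spread from -3.54 to 1.72.

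The genes most like Fosl2 over the 6 libraries were sought among 8899 others with a mean of at least 10 CPM, by the smallest root-mean-square difference in log2 CPM centred on the gene mean. Abhd16a, a lipase gene, came first with a difference of 0.041 and went from 37.9, 36.1 and 35.2 CPM to 22.5, 22.0 and 17.0 CPM. Per1, a circadian clock gene (0.054), and the RNA gene Snhg8 (0.060) followed, with log2 fold changes of -0.88 and -0.77. All 3 share the low replicate 3 of each group with Fosl2, which follows from how they were picked.

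Markers of cell types set the frame for the members' levels. The T cell markers summed to 1471 to 1632 CPM in Th1 cultures and 1219 to 1280 CPM in treated ones, with Cd4 the most abundant. Cd4 (-0.46), Cd3d (-0.39) and Cd3g (-0.35) were lower, and Trac (0.0070, 95% interval from -0.14 to 0.16, edgeR adjusted p = 0.947) and Cd3e (-0.23, 95% interval from -0.46 to 0.0051, edgeR adjusted p = 0.101) were not called. Of the T cell markers 0 of 5 were higher at an adjusted or unadjusted p under 0.05 in edgeR or by DESeq2 or limma-voom. Of the 5 Th1 markers, Tbx21 was higher (0.34) and Ifng (-0.79) and Stat4 (-1.16) were lower. Cxcr3 (0.25, edgeR adjusted p = 0.131) and Il12rb2 (-0.0069, edgeR adjusted p = 0.949) were not called. Over all genes 24.53% were higher and 23.18% lower, which stands beside each of these marker counts. Myeloid, erythroid and most dendritic cell markers were under 1 CPM in every library, and S100a8 and S100a9 had 0 counts in all of them. The NK cell markers Ncr1 and Klrb1c were also under 1 CPM, and Klrd1 was not called (-0.15, edgeR adjusted p = 0.426). Of the 5 dendritic cell markers, named here because those cells also express Batf3, Xcr1, Clec9a, Itgax and Flt3 were under 1 CPM. The fifth, Zbtb46, was at 3.26, 3.67 and 3.83 CPM in Th1 cultures and 2.78, 3.03 and 2.31 CPM in treated ones, without overlap (log2 fold change -0.40, 95% interval from -0.82 to 0.014, edgeR adjusted p = 0.105). The B cell markers summed to 8.84, 8.16 and 7.60 CPM in Th1 cultures and 14.4, 11.4 and 12.2 CPM in treated ones, led by Pax5, with Pax5 (0.90), Ms4a1 (1.27) and Cd79a (0.67) of 5 called higher, against 24.53% of all genes, although the call of Cd79a lasted in only 6 of 18 alternatives (adjusted p from 0.0114 to 0.214). Cd8a was lower (-0.80, adjusted p from 0.00159 to 0.0556 over alternatives) at no more than 4.29 CPM, while the other CD8 marker, Cd8b1, had a log2 fold change of -0.0070 (95% interval from -0.32 to 0.31, edgeR adjusted p = 0.976). Pf4 was higher (1.69) at no more than 2.04 CPM, and Pecam1 was lower (-0.32). Ly6g, listed as a neutrophil marker, went from 71.3, 75.3 and 69.8 CPM to 31.6, 24.1 and 25.2 CPM. The part of other cells in the levels of the AP-1 genes was not tested.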

How the data were processed

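RNA was sequenced from 6 cultures, with groups and replicates as labelled. The authors deposited raw read counts per gene, not normalized and not pooled. The submitters' processing notes name fastp, HISAT2 2.0.5, featureCounts 1.5.0-p3 and the mm10 build (GRCm38), and options, strand setting and annotation release are not given in the sources used here. The labels describe capture on poly-T beads and the study's methods describe ribosomal RNA depletion, so the selection is uncertain. From the counts, edgeR 4.0.16 in R 4.3.3 was run on all genes (filterByExpr with a minimum count of 10 and a minimum total of 15, TMM factors, quasi-likelihood F test), and p-values were adjusted by Benjamini-Hochberg over 15938 genes. Called means an adjusted p under 0.05. The SE is the absolute log2 fold change divided by the square root of F. RPKM was computed from these counts and the table's gene lengths. Family ratios were compared by an exact permutation test over samples, whose smallest p with 3 against 3 is 0.1. Within groups, chi-square per degree of freedom between pairs of replicates was 5.65 to 22.4, so they were counted separately. Exons, overlaps and transcript GC came from GENCODE M21, in which 54495 of 54532 genes were found. No genome sequence was used here beyond the windows before RefSeq starts. Copies were searched with BLAST 2.17.0, and promoters came from RefSeq. The procedures were tested on simulated data. Alternatives were other normalizations, filters and thresholds, DESeq2 1.42.0, limma-voom (limma 3.58.1), protein-coding genes alone, a replicate block, length and GC corrections, and each replicate left out.

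The members and lists were chosen with earlier results of these data known. Named genes are all members, up to 6 called genes with the smallest p in each list, markers of cell types, the 3 genes most like the member with the smallest p, and genes whose exons overlap a member. Any other is marked where it is named. Figures were drawn with matplotlib 3.10.9.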

Additional observations from a re-analysis of the deposited data

How the results depend on the processing

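Of the members, Fosl2, Junb and Maff kept their direction and call under all 18 refits. Fos lost its call with upper-quartile scaling and in 2 of the left-out cases. Jund lost its call with upper-quartile scaling, the GC correction and in 4 left-out cases. Batf and Batf3 lost theirs with the length correction, although Batf3 was called when a replicate block was added to it. The log2 fold change of Jun, 0.031, was -0.0216 with upper-quartile scaling, -0.0160 over protein-coding genes alone and -0.0140 with the GC correction, and from -0.0142 to 0.1221 with a replicate left out. Members called higher numbered 3 (3910 over all genes), and 1 with upper-quartile scaling (3413), 1 at an adjusted p under 0.01 (2924) and 1 to 3 with a replicate left out (3330 to 3852). Members called lower numbered 4 (3695 over all genes), and 2 with the length correction (3672). They numbered 4 with that correction and a replicate block (3847), and 4 to 5 with a replicate left out (3220 to 3851). The causes were not tested. With an absolute log2 fold change over 1 required as well, calls numbered 1600 over the whole table, 0 and 0 for members higher and lower, 1 for bZIP partners, 7 for targets, 2 for early response genes, 3 for heat shock genes and 0 for composite-site partners, upstream genes and turnover genes, since fewer genes pass both conditions. Turnover genes called fell from 7 to 4 at 0.01, and all genes called from 7605 to 5611. The change in the Jund share of the JUN family, -0.092, ranged from -0.20 to 0.078 with a replicate left out.

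Whether replicate numbers pair the cultures cannot be told with 3 cultures per group. The correlations of deviations from the group mean were 0.086, 0.051 and 0.24 for the same numbers. For different numbers they ranged from -0.26 to 0.24. Only the third number correlated best with itself in both groups. With a replicate block, 7904 genes were called instead of 7605, and 3 members higher and 5 lower, with Fosb added (-0.44, edgeR adjusted p = 0.0366).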
